A study of Mus musculus with 12 samples.

Results

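The genes described here are the platelet-derived growth factor (PDGF) family, which has 4 ligand genes (Pdgfa, Pdgfb, Pdgfc and Pdgfd) and 2 receptor genes (Pdgfra and Pdgfrb). They were chosen by symbol, without use of their values, and make up 6 of the 55401 genes in the deposited table. Of the 6 members, 5 were among the 16915 genes that passed the filter on low counts and were tested, and Pdgfd did not pass.

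Bulk RNA sequencing was done on peritoneal lavage cells of C57BL/6J mice, collected in 8 mL of saline 7 days after an intraperitoneal injection. The ID8-FSHR mice (n = 4) received the cell line labelled ID8 (defb29/Vegf-a) FSHR, the ID8 mice (n = 4) received ID8 (defb29/Vegf-a), and the uninjected mice (n = 4) received nothing. ID8 cells derive from mouse ovarian surface epithelium, the label names Defb29 and Vegf-a in both tumour groups, and FSHR is the follicle-stimulating hormone receptor. The purpose stated in the series text is to compare the peritoneal tumour environment with and without FSHR overexpression. No group was injected with saline alone, so tumour cells and the injection cannot be told apart. The submitters call the mice of a group biological replicates, and numbering among ID8-FSHR titles has gaps without a stated reason. Whether the FSHR line is 1 clone, and the age of the mice, are not stated. The dose of cells differs between the sources, with 4000000 in the series text and 5000000 in the sample protocol. A lavage mixes tumour cells with resident and recruited immune cells, so more cells of a type and more RNA per cell cannot be told apart in any value below.

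PDGFs are disulfide-linked dimers that bring receptor chains together and switch on their tyrosine kinase. PDGF-A and PDGF-B are cut to their active form inside the cell, whereas PDGF-C and PDGF-D are secreted in a latent form and need a protease outside the cell. The alpha receptor binds the A, B and C chains and the beta receptor binds B and D. In tissues the receptors are best known on fibroblasts, pericytes and other mesenchymal cells, and the ligands on epithelia, endothelium, macrophages and platelets.

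Levels are given in CPM, read counts scaled to edgeR's effective library size. Total counts ran from 47419608 to 64333677 per library, and a count of 0 allows a level of up to 0.0444 to 0.0653 CPM depending on the library (3 counts, counting error only). Defb29, named in the label, was at 8.41 to 23.8 CPM in ID8-FSHR, 20.8 to 29.1 CPM in ID8 and 0 counts in every uninjected library. Fshr had at most 7 counts in an ID8-FSHR library, at most 2 in an ID8 library and 0 in uninjected libraries. The sources used here do not say whether the construct carries the mouse exons, so the Fshr row does not check the label. ID8-FSHR replicate 2 stood apart on the first principal component of log2 CPM, at -24.8, against -68.7 to -60.7 in the other 7 tumour libraries and 116 to 121 in uninjected libraries.

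The latent ligand Pdgfc was the only tested member called between the tumour groups, lower in ID8-FSHR than in ID8, and it was higher in both than in uninjected mice. Pdgfc (ENSMUSG00000028019.9, GRCm38 chromosome 3, 81036416 to 81214040, plus strand, 7 merged exons) stood at 9.05, 4.00, 9.10 and 11.6 CPM in ID8-FSHR replicates 1 to 4, against 30.7, 26.2, 35.7 and 38.4 CPM in ID8 replicates 1 to 4. Uninjected replicates 1 to 4 had 0.513, 0.369, 0.202 and 0.784 CPM. No library of one group reached the range of another, and the lowest ID8-FSHR value belonged to replicate 2. The group means were 8.43 ± 3.19 CPM in ID8-FSHR, 32.8 ± 5.39 CPM in ID8 and 0.467 ± 0.247 CPM in uninjected mice (SD, n = 4 each). Relative to uninjected mice, the means were 18.1-fold higher in ID8-FSHR and 70.2-fold higher in ID8. The log2 fold changes were 4.18 (SE 0.38) in ID8-FSHR and 6.14 (SE 0.39) in ID8, with edgeR quasi-likelihood adjusted p = 6.97e-07 and 3.35e-08.

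Pdgfc fell in ID8-FSHR relative to ID8 by 1.96 on the log2 scale (SE 0.30, edgeR quasi-likelihood adjusted p = 0.00138), and its mean was 3.89-fold higher in ID8. Of the 16915 genes tested, 119 had a lower log2 fold change in this contrast. Without ID8-FSHR replicate 2 the change was -1.71 (edgeR adjusted p = 0.00081). Markers of mesothelium and ovarian surface epithelium, the tissue from which ID8 derives, moved the same way, with 0 of 11 higher and 5 of 11 lower in ID8-FSHR than in ID8. Of all tested genes, 6.04% were higher and 5.56% lower. The summed marker level in ID8-FSHR replicates 1 to 4 was 2545, 989, 2381 and 2257 CPM, against 2876 to 3619 CPM in ID8 and 19.5 to 21.2 CPM in uninjected mice. With that marker list as a covariate among the 8 tumour libraries, the Pdgfc change was -0.97 and edgeR adjusted p = 0.0557, where the adjusted p ran from 6.15e-08 to 0.0557 over all alternatives. The marker sums did not overlap between the tumour groups, so this fit separates the list from the group poorly.

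**Figure D1:**
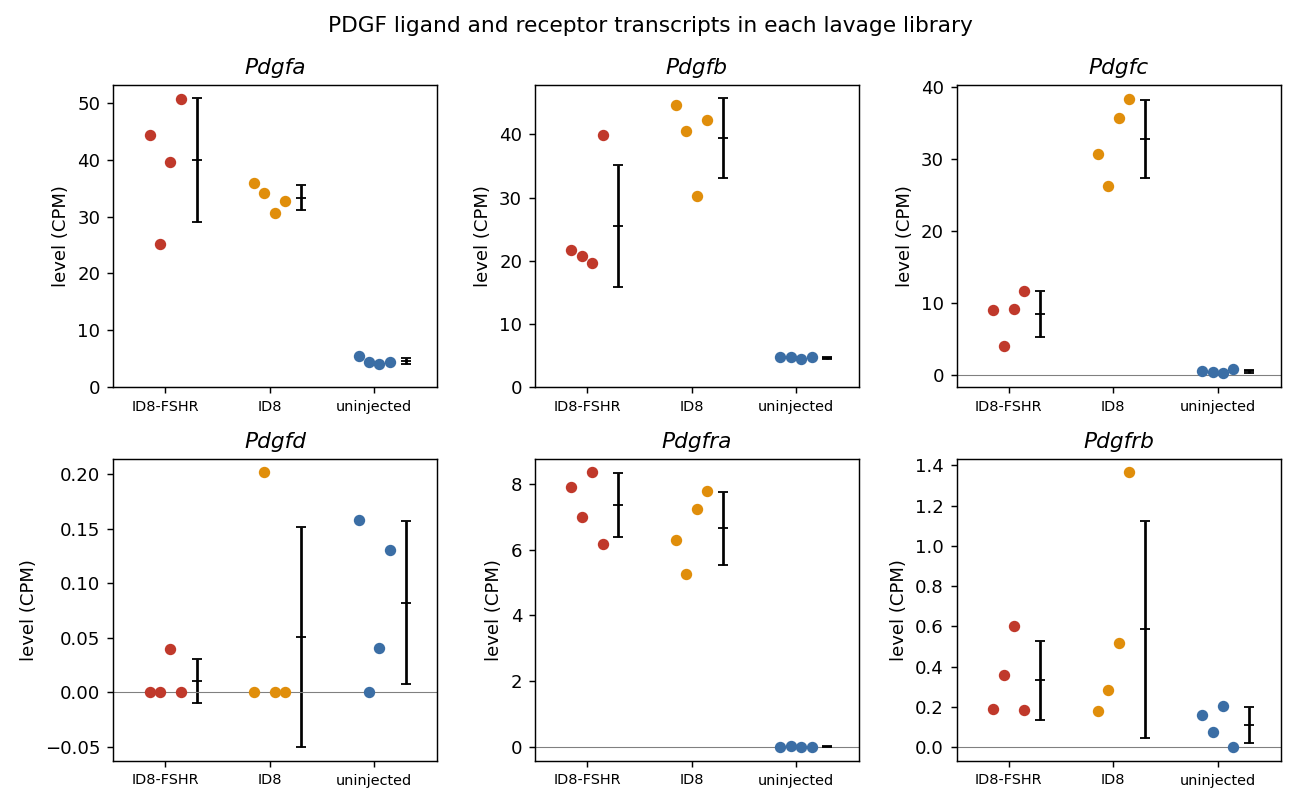
Level in CPM (y axis, linear, a separate scale for each gene) of the 6 members in ID8-FSHR, ID8 and uninjected libraries, with 1 point per library, the mean as a bar and the SD as a whisker (n = 4 per group). Pdgfc lies between 4.00 and 11.6 CPM in ID8-FSHR and between 26.2 and 38.4 CPM in ID8, and Pdgfd is at 0 in 3 ID8-FSHR libraries.

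Pdgfa, the ligand of the alpha receptor made by many epithelia, was higher in both tumour groups than in uninjected mice. Pdgfa (ENSMUSG00000025856.15, chromosome 5, 138976014 to 138997370, minus strand, 12 merged exons) had 44.4, 25.1, 39.6 and 50.6 CPM in ID8-FSHR replicates 1 to 4. ID8 replicates 1 to 4 had 35.8, 34.1, 30.6 and 32.7 CPM, and uninjected replicates 1 to 4 had 5.41, 4.43, 4.12 and 4.33 CPM. Every tumour library was above every uninjected one, and the tumour groups overlapped, with ID8-FSHR replicate 2 below all ID8 libraries and the other 3 above them. Relative to uninjected mice the log2 fold change was 3.13 (SE 0.19) in ID8-FSHR and 2.86 (SE 0.18) in ID8, with edgeR adjusted p = 1.94e-08 and 3.45e-08. For ID8-FSHR relative to ID8 it was 0.26 (SE 0.17, edgeR adjusted p = 0.327). That contrast passed the threshold without ID8-FSHR replicate 2 (0.45, edgeR adjusted p = 0.0174) and with the mesothelial covariate (0.85, edgeR adjusted p = 0.0366), and the adjusted p ran from 0.0174 to 0.672 over all alternatives. The antisense gene 6330403L08Rik shares 813 bases with Pdgfa exons, and stood at 8.24 to 14.2 CPM in ID8-FSHR, 13.1 to 16.2 CPM in ID8 and 4.72 to 7.75 CPM in uninjected mice. The sources used here give no strand setting for the counting, so reads within the shared bases cannot be told apart. The Pdgfa exons hold 3119 bases in all.

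Pdgfb, which binds both receptors and recruits pericytes to vessels, was higher in both tumour groups as well. Pdgfb (ENSMUSG00000000489.7, chromosome 15, 79995874 to 80014977, minus strand, 8 merged exons) had 21.7, 20.8, 19.7 and 40.0 CPM in ID8-FSHR replicates 1 to 4. ID8 replicates 1 to 4 had 44.6, 40.6, 30.3 and 42.3 CPM, and uninjected replicates 1 to 4 had 4.70, 4.78, 4.40 and 4.77 CPM. ID8-FSHR replicate 4 lay within the ID8 range and its other 3 libraries lay below it, while no tumour library overlapped the uninjected mice. Relative to uninjected mice the log2 fold change was 2.45 (SE 0.22) in ID8-FSHR and 3.08 (SE 0.22) in ID8, with edgeR adjusted p = 5.61e-07 and 8.44e-08. Between ID8-FSHR and ID8 it was -0.63 (SE 0.20, edgeR adjusted p = 0.0609). Without ID8-FSHR replicate 4 it was -0.93 (edgeR adjusted p = 0.000915), and DESeq2 gave -0.64 with adjusted p = 0.021. The adjusted p ran from 0.000915 to 0.695 over all alternatives.

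Pdgfd, a latent ligand of the beta receptor, was near 0 in all groups. Pdgfd (ENSMUSG00000032006.15, chromosome 9, 6168584 to 6378850, plus strand, 7 merged exons) had 0, 0, 2 and 0 counts in ID8-FSHR replicates 1 to 4, 0, 10, 0 and 0 counts in ID8 replicates 1 to 4, and 8, 0, 2 and 6 counts in uninjected replicates 1 to 4. It was detected in 1 ID8-FSHR library, 1 ID8 library and 3 uninjected libraries, and all 3 groups overlapped. The ratio of summed counts per effective library size to uninjected mice was 0.115 in ID8-FSHR (95% exact binomial interval 0.0128 to 0.488, and 0.00259 to 0.856 with counts halved) and 0.558 in ID8 (0.226 to 1.31). For ID8-FSHR relative to ID8 it was 0.206 (0.0219 to 0.966, and 0.00435 to 1.84 with counts halved). All 10 ID8 counts came from 1 library, and these intervals cover counting error, not the spread between mice, for which Pdgfd had too few counts to pass the filter.

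Pdgfra was almost absent from uninjected lavage and present in every tumour library. Pdgfra (ENSMUSG00000029231.15, chromosome 5, 75152292 to 75198215, plus strand, 27 merged exons) encodes the alpha receptor, a marker of fibroblasts and their precursors. It had 7.91, 7.00, 8.35 and 6.17 CPM in ID8-FSHR replicates 1 to 4, and 6.29, 5.26, 7.25 and 7.79 CPM in ID8 replicates 1 to 4. The uninjected libraries had 0, 2, 0 and 0 counts, where single ID8-FSHR libraries had 338 to 500 counts and ID8 libraries 261 to 445. The ratio of summed counts per effective library size to uninjected mice was 738 in ID8-FSHR (95% exact binomial interval 204 to 6095) and 667 in ID8 (184 to 5512). Most low counts in the table are even, 74.8% of counts from 1 to 20 against 51.5% of counts from 100 to 1000, and with each count halved the intervals were 132 to 29184 and 120 to 26430. These intervals cover counting error only. The fitted log2 fold changes, which depend on how edgeR treats the near-empty uninjected libraries, were 9.23 (SE 0.43) in ID8-FSHR and 9.08 (SE 0.43) in ID8, with edgeR adjusted p = 3.23e-09 and 2.75e-09. Of the 16915 genes tested, 179 had a higher log2 fold change in ID8-FSHR and 254 in ID8. Between ID8-FSHR and ID8 the means were 7.36 ± 0.971 and 6.65 ± 1.11 CPM (SD, n = 4 each), and the groups overlapped. The log2 fold change between them was 0.15 (SE 0.22, edgeR adjusted p = 0.707).

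Pdgfrb, the pericyte receptor, was detected at low counts. Pdgfrb (ENSMUSG00000024620.11, 24 merged exons) had 12, 18, 30 and 10 counts in ID8-FSHR replicates 1 to 4, 12, 14, 26 and 78 counts in ID8 replicates 1 to 4, and 8, 4, 10 and 0 counts in uninjected replicates 1 to 4. The mean level was 0.333 ± 0.196 CPM in ID8-FSHR, 0.586 ± 0.539 CPM in ID8 and 0.108 ± 0.0897 CPM in uninjected mice (SD, n = 4 each), and all 3 groups overlapped. The ID8 mean rests on replicate 4, which had more counts than the other 3 ID8 libraries together. Relative to uninjected mice the log2 fold change was 1.58 (SE 0.83, edgeR adjusted p = 0.112) in ID8-FSHR and 2.40 (SE 0.82, edgeR adjusted p = 0.021) in ID8. The ID8 call was lost without ID8 replicate 4 (1.55, edgeR adjusted p = 0.116) and without uninjected replicate 2 (2.25, edgeR adjusted p = 0.0557), and the adjusted p ran from 0.00419 to 0.116 over all alternatives. Between ID8-FSHR and ID8 the change was -0.82 (SE 0.74, edgeR adjusted p = 0.499).

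In counts over members, 4 of 5 tested were higher in ID8-FSHR than in uninjected mice and 5 of 5 in ID8, against 33.9% and 32.7% of all tested genes called higher. By edgeR, DESeq2 and limma-voom, and at an unadjusted edgeR p under 0.05, 0 of the 5 were lower, against 30.6% of all tested genes in ID8-FSHR and 31.4% in ID8. Pdgfra and Pdgfrb passed the filter through the tumour libraries only, with 0 uninjected libraries at the filter's level, so their part in these counts follows from the filter and the counts support nothing about the family. Between the tumour groups, 1 of 5 was lower in ID8-FSHR than in ID8 and 0 of 5 were higher, against 5.56% and 6.04% of all tested genes. Both comparisons with uninjected mice share the same 4 uninjected libraries.

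**Figure D2:**
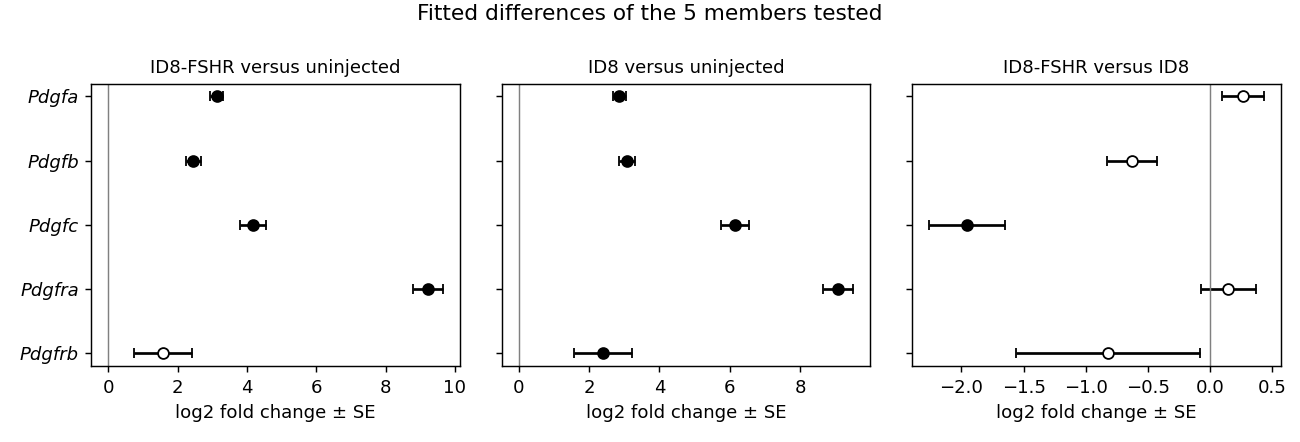
Log2 fold change with SE (edgeR quasi-likelihood fit over 12 libraries, n = 4 per group) of the 5 tested members in each comparison, with filled points at adjusted p under 0.05. In ID8-FSHR versus ID8 only Pdgfc is filled, at -1.96.

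Set per kilobase (kb) of merged exons, so that genes can be compared, Pdgfa, Pdgfb and Pdgfc had higher means than both receptors in each group, and Pdgfd did not in either tumour group. In ID8-FSHR the mean level was 12.8 ± 3.48 CPM per kb for Pdgfa, 6.14 ± 2.32 for Pdgfb, 1.66 ± 0.626 for Pdgfc and 0.734 ± 0.0969 for Pdgfra (SD, n = 4). In ID8 it was 10.7 ± 0.714 CPM per kb for Pdgfa, 9.48 ± 1.52 for Pdgfb, 6.44 ± 1.06 for Pdgfc and 0.663 ± 0.111 for Pdgfra. In uninjected mice Pdgfa at 1.47 ± 0.183 and Pdgfb at 1.12 ± 0.0423 CPM per kb led, and Pdgfc stood at 0.0918 ± 0.0485. Pdgfa and Pdgfb overlapped in ID8 and in ID8-FSHR, where their ranges were 8.06 to 16.2 and 4.73 to 9.60 CPM per kb. Pdgfrb and Pdgfd followed, at 0.0608 and 0.00318 CPM per kb in ID8-FSHR, 0.107 and 0.0160 in ID8, and 0.0198 and 0.0261 in uninjected mice, where their ranges overlapped.

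The balance between members was read as the log2 ratio of their counts within a library, which does not depend on library scaling. The log2 ratio of Pdgfa to Pdgfb was 0.66 ± 0.41 in ID8-FSHR, -0.23 ± 0.17 in ID8 and -0.04 ± 0.16 in uninjected mice (SD, n = 4 each). It was higher by 0.90 in ID8-FSHR than in ID8 and by 0.70 than in uninjected mice, each with an exact permutation p = 0.0286 (two-sided, the smallest that 4 against 4 allows) and 0.0429 after Benjamini-Hochberg adjustment over 9 ratio comparisons. The linear Pdgfa to Pdgfb ratios were 2.05, 1.21, 2.01 and 1.27 in ID8-FSHR replicates 1 to 4, 0.803, 0.841, 1.01 and 0.773 in ID8 and 1.15, 0.927, 0.936 and 0.909 in uninjected mice. The call against ID8 was lost without ID8 replicate 1, 2 or 4 (exact permutation adjusted p = 0.0735 to 0.0857) and that against uninjected mice without any single uninjected library (0.0857 to 0.129). The exact p has a floor and its adjustment depends on the other ratios, so a lost call does not by itself measure the library left out. Every ID8-FSHR library was above every other library, although neither gene on its own passed the test between the tumour groups.

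For the receptors, the log2 ratio of Pdgfra to Pdgfrb was 4.59 ± 0.71 in ID8-FSHR, 3.89 ± 1.07 in ID8 and -2.33 ± 2.23 in uninjected mice (SD, n = 4 each). It was 6.92 higher in ID8-FSHR and 6.22 higher in ID8 than in uninjected mice (exact permutation adjusted p = 0.0429 for both), and ID8-FSHR and ID8 differed by 0.70 (exact permutation p = 0.343). The uninjected ratios carry few counts and depend on the 0.5 added to each. The receptor calls were lost without any single uninjected library, and in ID8 also without ID8 replicate 1 or 4 (exact permutation adjusted p = 0.0514 to 0.0643). Every tumour ratio was above every uninjected one, so these losses come from the floor of the exact p and its adjustment over the other ratios. The ratio of Pdgfc to Pdgfd gave no usable size, since Pdgfd was at 0 in 3 ID8-FSHR, 3 ID8 and 1 uninjected library, where the 0.5 added sets the ratio.

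Further ratios between the tumour groups were chosen after the levels were seen, 9 in all. The linear ratio of Pdgfc to Pdgfra was 1.14, 0.572, 1.09 and 1.88 in ID8-FSHR replicates 1 to 4, and 4.88, 4.98, 4.92 and 4.92 in ID8 replicates 1 to 4. No ID8-FSHR library reached the ID8 range. The spread in ID8 was below what counting error gives at 261 to 445 Pdgfra counts per library, so its narrowness describes these 4 values only. On the log2 scale the ratio averaged 0.10 ± 0.70 in ID8-FSHR and 2.30 ± 0.012 in ID8 (SD, n = 4 each, exact permutation adjusted p = 0.0429 over the 9). Pdgfc relative to Pdgfa fell by 2.26 and relative to Pdgfb by 1.37 in ID8-FSHR (exact permutation adjusted p = 0.0429 for both). The ratio of Pdgfra to Pdgfa differed by -0.07 between ID8-FSHR and ID8 (exact permutation p = 0.857).

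**Figure D3:**
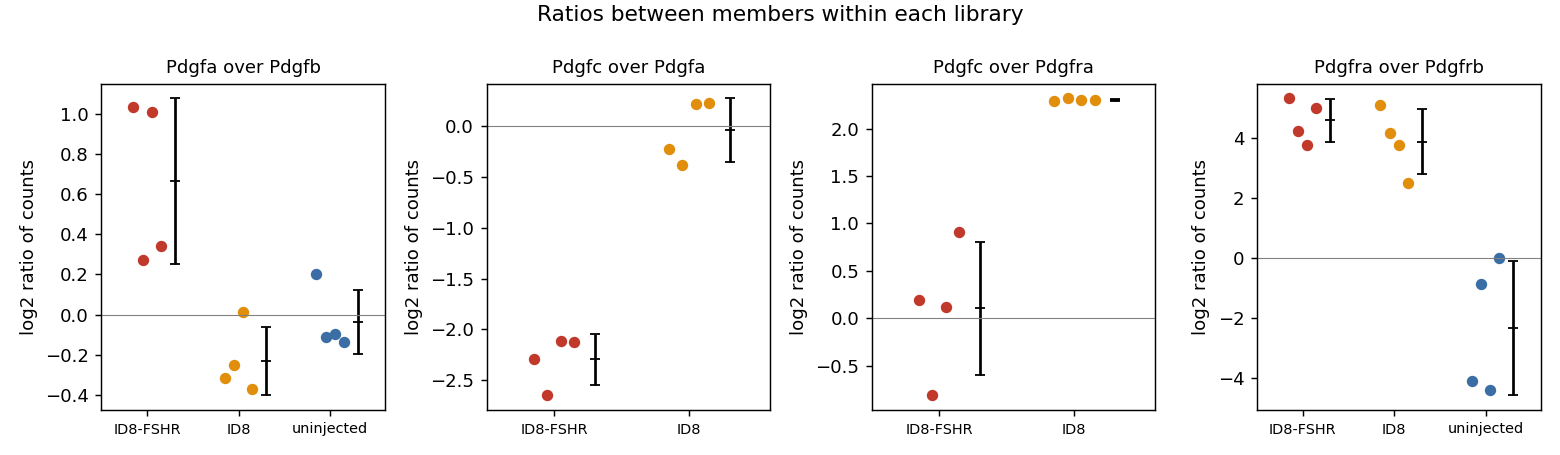
Log2 ratio of counts of member pairs within each library (y axis), in all 3 groups for Pdgfa to Pdgfb and Pdgfra to Pdgfrb and in the tumour groups for the others, with 1 point per library and the mean as a bar. The Pdgfa to Pdgfb ratio is 0.27 to 1.03 in ID8-FSHR and -0.37 to 0.01 in ID8, and the Pdgfc to Pdgfra ratio averages 2.30 in ID8.

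Relative to the summed mesothelial list, which fell in part between the tumour groups, the members behaved unlike each other in ID8-FSHR against ID8. The log2 ratio to that list differed by 1.02 for Pdgfa, 0.95 for Pdgfra and -1.24 for Pdgfc (exact permutation adjusted p = 0.0429 for each, over the 9 added ratios). For Pdgfb the difference was 0.12 (exact permutation p = 0.771). These ratios were also chosen after the levels were seen, and the part of tumour cell number in them was not tested.

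**Figure D4:**
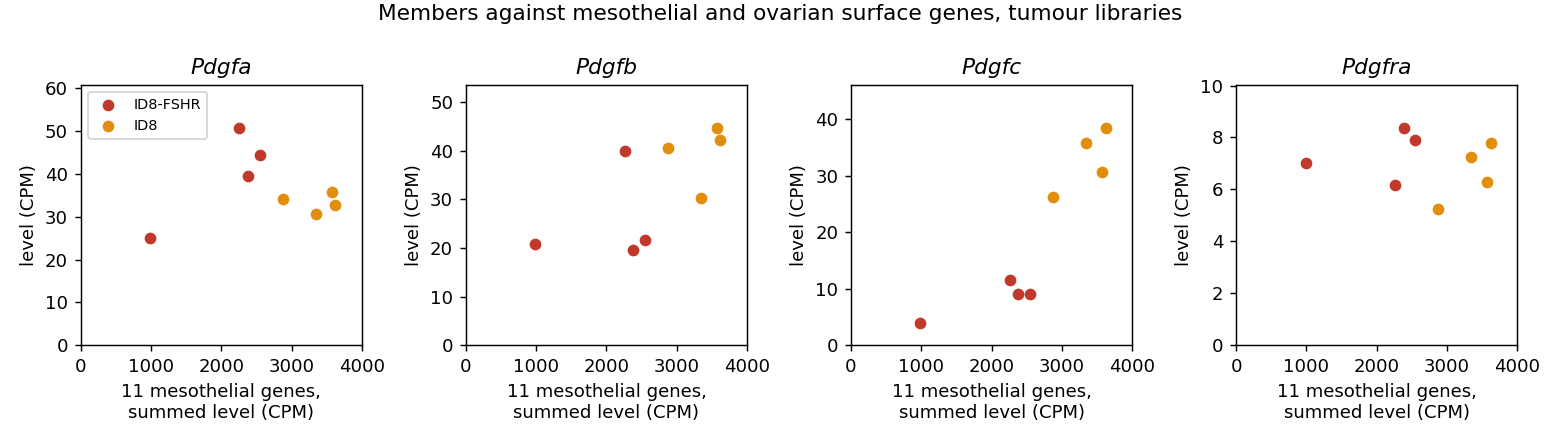
Level of Pdgfa, Pdgfb, Pdgfc and Pdgfra in CPM (y axis) against the summed level of 11 mesothelium and ovarian surface epithelium markers in CPM (x axis), with 1 point per tumour library (4 ID8-FSHR and 4 ID8). ID8-FSHR replicate 2 is the library with the lowest marker sum, 989 CPM, and the 4 ID8 libraries lie at 2876 to 3619 CPM.

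Some markers of the cells that are known to carry the receptors moved too. Of all tested genes, 33.9% were higher and 30.6% lower in ID8-FSHR than in uninjected mice, and 32.7% and 31.4% in ID8. Between ID8-FSHR and ID8 the shares were 6.04% higher and 5.56% lower. Of 8 tested fibroblast markers, 6 were higher in ID8-FSHR and 6 in ID8 than in uninjected mice, 0 were lower in ID8-FSHR and 1 was lower in ID8, and their summed level was 238 to 445 CPM in ID8-FSHR, 504 to 638 CPM in ID8 and 31.9 to 42.6 CPM in uninjected mice. Dcn, a small proteoglycan of connective tissue, made up most of the sum in the tumour groups, at 291 CPM in ID8-FSHR and 457 CPM in ID8. Dpt was at 0.105 CPM in ID8-FSHR, 0.0742 CPM in ID8 and 0 in uninjected mice. Fap, which did not pass, was at 0.314 CPM in ID8-FSHR, 0.363 CPM in ID8 and 0.701 CPM in uninjected mice. Thy1, also a T cell gene, was the one called lower in ID8, at 31.3 CPM in ID8-FSHR, 12.7 CPM in ID8 and 27.4 CPM in uninjected mice (-1.11 in ID8, edgeR adjusted p = 0.0052). In ID8-FSHR versus ID8, Thy1 was higher by 1.30 (edgeR adjusted p = 0.0151) and Pdpn changed by -1.05 (edgeR adjusted p = 0.00877). Of 7 tested pericyte and smooth muscle markers, 4 were higher in each tumour group and 3 did not pass. Their sums were 11.8 to 28.3 CPM in ID8-FSHR, 20.6 to 31.7 CPM in ID8 and 1.31 to 2.48 CPM in uninjected mice. Notch3 led that list, at 13.4 CPM in ID8-FSHR and 19.4 CPM in ID8. In uninjected mice Notch3 was at 0.0404 CPM at most and Des at 0.0871 CPM at most, below the filter's level of 0.187 CPM. Such markers passed the filter through the tumour libraries only, so the counts of higher markers follow in part from the filter. Rgs5 was at 0.198 CPM in ID8-FSHR and 0.202 CPM in ID8, and Acta2 at 0.730 and 0.530 CPM. Abcc9 was at 0.0538 CPM in ID8-FSHR, 0.0684 CPM in ID8 and 0.134 CPM in uninjected mice. Whether fibroblasts or pericytes carry the Pdgfra signal was not tested. Sums of platelet markers, a known source of PDGF, went the other way, at 62.9 to 133 CPM in ID8-FSHR, 140 to 190 CPM in ID8 and 335 to 441 CPM in uninjected mice. Of 4 tested platelet markers, Itga2b was higher in ID8-FSHR (0.88) and in ID8 (1.07), and Pf4 was lower in both. Itgb3 was lower in ID8-FSHR (-0.39) and higher in ID8 (0.53). Pf4 led that list, macrophages also make it, and the platelet gene Gp1bb was at 0 in all groups. Endothelial marker sums were 63.7 to 96.2 CPM in ID8-FSHR, 86.5 to 107 CPM in ID8 and 86.8 to 116 CPM in uninjected mice, with Cldn5 at 0 throughout. Those sums hold members that moved in opposite ways. The junction gene Esam was at 49.3 CPM in ID8-FSHR, 74.5 CPM in ID8 and 0.0906 CPM in uninjected mice, a log2 fold change of 9.06 in ID8-FSHR and 9.66 in ID8. Pecam1, also on leukocytes and platelets, was at 29.6 CPM in ID8-FSHR, 23.1 CPM in ID8 and 98.6 CPM in uninjected mice, or -1.74 in ID8-FSHR and -2.09 in ID8. Vwf was lower in ID8 alone by the test (-1.01, edgeR adjusted p = 0.0368), and in ID8-FSHR it was at -0.65 (edgeR adjusted p = 0.158). Large peritoneal macrophage marker sums were 3313 to 5881 CPM in ID8-FSHR, 3529 to 4360 CPM in ID8 and 7323 to 8472 CPM in uninjected mice. Of those 10 markers, 7 were lower and 1 higher in ID8-FSHR than in uninjected mice, and 9 were lower and 1 higher in ID8. The higher one was Gata6, at 151 CPM in ID8-FSHR, 183 CPM in ID8 and 101 CPM in uninjected mice. B cell marker sums were 243 to 434 CPM in ID8-FSHR, 276 to 426 CPM in ID8 and 2359 to 3145 CPM in uninjected mice. Of 8 T cell markers, 4 were higher in ID8-FSHR than in ID8, with sums of 60.6 to 131 CPM in ID8-FSHR, 38.8 to 45.4 CPM in ID8 and 47.5 to 138 CPM in uninjected mice.

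Promoter windows are shown for Pdgfc and Pdgfra, whose levels differed most from uninjected mice, and for Pdgfa as the member with the highest level per kb. They are the 250 bases before the RefSeq transcript start on build GRCm38.p6, read along the gene's strand. Windows of Pdgfa, Pdgfc, Pdgfd and Pdgfra, matched by symbol, were searched, and windows of the other members are not reported here. Capitals mark a match on either strand to GGGCGG, the core of the Sp1 site. The Pdgfc window lies at chr3:81036166-81036415 (plus strand), the Pdgfra window at chr5:75152001-75152250 (plus strand) and the Pdgfa window at chr5:138994945-138995194 (minus strand). The Pdgfra window ends before the GENCODE M21 start of the gene, 75152292. The bases checked after its RefSeq start were in no GENCODE M21 transcript of Pdgfra, unlike those of Pdgfc and Pdgfa. The table holds a second Pdgfa start, whose window lies at chr5:138994282-138994531 (minus strand) and is not printed.
Pdgfc: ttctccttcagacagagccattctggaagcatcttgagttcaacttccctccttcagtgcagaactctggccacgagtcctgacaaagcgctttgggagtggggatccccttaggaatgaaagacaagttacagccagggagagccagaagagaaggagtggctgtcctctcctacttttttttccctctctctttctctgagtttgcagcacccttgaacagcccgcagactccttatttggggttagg
Pdgfra: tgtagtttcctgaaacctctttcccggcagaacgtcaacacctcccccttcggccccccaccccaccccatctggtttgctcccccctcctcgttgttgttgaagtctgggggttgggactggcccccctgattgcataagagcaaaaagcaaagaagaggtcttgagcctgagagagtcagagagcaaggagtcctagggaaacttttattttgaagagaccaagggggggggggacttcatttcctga
Pdgfa: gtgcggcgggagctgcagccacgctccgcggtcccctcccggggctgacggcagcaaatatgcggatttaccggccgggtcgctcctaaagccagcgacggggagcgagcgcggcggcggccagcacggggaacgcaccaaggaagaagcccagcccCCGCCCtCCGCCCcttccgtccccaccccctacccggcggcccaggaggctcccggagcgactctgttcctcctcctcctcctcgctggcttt
The printed Pdgfa window held 2 matches to GGGCGG and 72.4% G and C, the other Pdgfa window held 1 match and 66.4%, and the Pdgfc and Pdgfra windows held none, with 50.8% and 54.4% G and C against a median of 52.4% over all windows. The motif was in 32.7% of the 32851 windows of the same length. None of these 4 windows held GCGNGGGCG (EGR and WT1, in 4.7% of windows), TGANTCA (AP-1, in 6.75%) or CCAAT (in 33.8%), on either strand and counting overlaps. A match describes letters only.

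The genes whose profile over the 12 libraries was most like each tested member were found among 11587 tested genes, by the root mean square difference of centred log2(CPM + 0.5). For Pdgfa they were Fgf11 (0.159), Trip6 (0.175) and Gtf2ird1 (0.177). For Pdgfb they were Rnf217 (0.241), Dapk2 (0.248) and Igf2bp2 (0.257). For Pdgfc they were Pcdh19, a protocadherin (0.268), Tuft1 (0.331) and Rasl11a (0.332), with Pcdh19 at 3.67 CPM in ID8-FSHR, 16.5 CPM in ID8 and 0.0545 CPM in uninjected mice. For Pdgfra they were Dhh, the hedgehog ligand of gonads and nerve sheath (0.163), Dclk1 (0.208) and Pald1 (0.211), and Dhh was at 5.81 CPM in ID8-FSHR, 6.47 CPM in ID8 and 0 in uninjected mice. For Pdgfrb they were Lipe (0.309), Lipt2 (0.318) and Nab2 (0.329). Their log2 fold changes in ID8 versus uninjected were 0.74, 0.72 and 0.70, against 2.40 for Pdgfrb. The 0.5 added flattens the profile of Pdgfrb at its low level, so this likeness carries little.

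Against uninjected mice, 33.9% of all tested genes were higher and 30.6% lower in ID8-FSHR, and 32.7% and 31.4% in ID8. In ID8-FSHR versus ID8, 6.04% were higher and 5.56% lower. The counts of this and the following lists are to be read beside these shares. Some list genes, Vegfd and Il34 among them, passed the filter through the tumour libraries only, so their part in the counts against uninjected mice follows from the filter. Of the signalling genes downstream of the receptors, 20 adaptors and first effectors were tested. Relative to uninjected mice 9 were higher and 8 lower in ID8-FSHR (median log2 fold change 0.20, against 0.00 over all genes), and 10 were higher and 9 lower in ID8 (median 0.18, against -0.03). The kinase Src was at 42.7 CPM in ID8-FSHR, 56.0 CPM in ID8 and 2.74 CPM in uninjected mice, a log2 fold change of 3.96 in ID8-FSHR and 4.35 in ID8. Yes1, a relative of Src, was higher by 2.26 in ID8-FSHR and 2.45 in ID8, and the adaptor Nck2 by 1.22 in ID8-FSHR and 1.32 in ID8. Between ID8-FSHR and ID8, 0 of 20 passed edgeR's test, DESeq2 or limma-voom, and 1 was higher and 1 lower at an unadjusted p under 0.05. The median was 0.00, against -0.01 over all genes, and Fyn at 0.33 (edgeR adjusted p = 0.117), Gab1 at -0.27 (edgeR adjusted p = 0.138) and Src at -0.39 (edgeR adjusted p = 0.233) were the nearest. Without ID8-FSHR replicate 1, Fyn (0.41, edgeR adjusted p = 0.036) and Gab1 (-0.36, edgeR adjusted p = 0.0358) passed.

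Of 12 genes for proteases that process PDGF ligands inside or outside the cell, their inhibitors and the receptor Plaur, 10 were tested. In ID8-FSHR 4 were higher and 1 lower than in uninjected mice (median 0.21), and in ID8 4 were higher and 5 lower (median -0.10). Plat, the tissue plasminogen activator that activates PDGF-C, was at 74.9 CPM in ID8-FSHR, 102 CPM in ID8 and 0.386 CPM in uninjected mice, a log2 fold change of 7.60 in ID8-FSHR (SE 0.39) and 8.04 in ID8 (SE 0.40). The protease inhibitor Spint2 changed by -1.17 in ID8-FSHR and -1.46 in ID8. Between the tumour groups St14, the membrane serine protease matriptase, was higher in ID8-FSHR by 1.10 (SE 0.31, edgeR adjusted p = 0.0369), at 14.3 CPM in ID8-FSHR and 6.66 CPM in ID8, although the libraries of the 2 groups overlapped. That call was lost under 11 of 22 alternatives, among them leaving out ID8 replicate 1, 3 or 4, ID8-FSHR replicate 2, 3 or 4 or uninjected replicate 1 or 3 (edgeR adjusted p up to 0.742 over all). The other 9 did not pass, with Plat at -0.44 (edgeR adjusted p = 0.295) and Spint2 at 0.30 (edgeR adjusted p = 0.274).

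Of 8 tested binding partners of the ligands, 4 were higher and 3 lower in ID8-FSHR and in ID8 alike than in uninjected mice, with medians of 1.97 and 2.26. Hspg2, the basement membrane proteoglycan perlecan, was at 593 CPM in ID8-FSHR, 894 CPM in ID8 and 30.7 CPM in uninjected mice, and Dcn was at 291 CPM in ID8-FSHR, 457 CPM in ID8 and 3.91 CPM in uninjected mice. S1pr1, a sphingosine phosphate receptor known as a partner of the beta receptor, was lower, at 57.7 CPM in ID8-FSHR, 65.5 CPM in ID8 and 322 CPM in uninjected mice. Of the 8, only the proteoglycan Bgn passed between ID8-FSHR and ID8, at -1.15 (SE 0.34, edgeR adjusted p = 0.047), with Hspg2 at -0.59 (edgeR adjusted p = 0.114) and Dcn at -0.65 (edgeR adjusted p = 0.196). The Bgn call was lost under 13 of 22 alternatives, among them leaving out any ID8 library, ID8-FSHR replicate 2 or 3 or uninjected replicate 1, 2 or 3 (edgeR adjusted p up to 0.325 over all).

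Among 10 phosphatases and ubiquitin ligases that switch the receptors off, 4 were higher and 4 lower in ID8-FSHR and 3 higher and 5 lower in ID8 than in uninjected mice. Lrig1, a membrane protein that promotes receptor turnover, was at 42.8 CPM in ID8-FSHR, 37.6 CPM in ID8 and 1.51 CPM in uninjected mice. The ligase Cbl fell by 0.84 in ID8-FSHR and by 1.06 in ID8 on the log2 scale. The phosphatase Ptpn12 was the only one of the 10 to pass edgeR's test in ID8-FSHR versus ID8, at 135 CPM in ID8-FSHR and 167 CPM in ID8, a change of -0.30 (SE 0.06, edgeR adjusted p = 0.00648). With the mesothelial covariate edgeR adjusted p = 0.175, the highest over 22 alternatives. Ptpn2 was at 0.31 (edgeR adjusted p = 0.0623) and the suppressor Socs1 at 1.52 (edgeR adjusted p = 0.0629). DESeq2 called both higher, with adjusted p = 0.0292 for Ptpn2 and 0.0115 for Socs1, and limma-voom called Ptpn12 alone.

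Of 14 early genes known to be induced by PDGF in cultured cells, 5 were higher and 4 lower in both tumour groups than in uninjected mice. These counts are near the shares over all tested genes. The medians were -0.27 in ID8-FSHR and 0.08 in ID8. The matricellular genes Ccn1 and Ccn2 had the highest fold changes, and Ccn1 was at 51.4 CPM in ID8-FSHR, 147 CPM in ID8 and 0.219 CPM in uninjected mice. Ccn2 was at 63.3 CPM in ID8-FSHR, 190 CPM in ID8 and 0.0939 CPM in uninjected mice, and Hbegf was 2.33 higher in ID8-FSHR and 2.99 higher in ID8. Ccn1 fell by 1.51 (SE 0.36, edgeR adjusted p = 0.0183) and Ccn2 by 1.59 (SE 0.45, edgeR adjusted p = 0.0384) in ID8-FSHR versus ID8, and the Ccn2 libraries overlapped. DESeq2 gave adjusted p = 0.0525 for Ccn1 and 0.302 for Ccn2. The Ccn1 call was lost under 5 of 22 alternatives, among them without ID8 replicate 1 or ID8-FSHR replicate 2, and the Ccn2 call under 10, among them without ID8 replicate 1, 2 or 4, ID8-FSHR replicate 2 or 3 or uninjected replicate 4 (edgeR adjusted p up to 0.545 for Ccn1 and 0.737 for Ccn2). The other 12 did not pass edgeR's test, with Ier3 at -0.42 (edgeR adjusted p = 0.0801). DESeq2 called 3 of those 12 lower, Hbegf at -0.67 (adjusted p = 0.036), Ier3 at -0.43 (adjusted p = 0.0417) and Jun at -0.60 (adjusted p = 0.049), while limma-voom called Ccn1 and Ccn2 alone. These 3 were named after their values were seen, and 6 of the 14 were lower at an unadjusted edgeR p under 0.05.

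The relatives of the PDGF receptors included Kitl, the ligand of Kit, at 145 CPM in ID8-FSHR, 140 CPM in ID8 and 7.29 CPM in uninjected mice. Of 7 class III receptor kinases and their other ligands, 4 were higher and 3 lower in both tumour groups than in uninjected mice, with medians of 1.11 in ID8-FSHR and 1.09 in ID8. Il34, a ligand of the macrophage receptor Csf1r, had 0 counts in every uninjected library and was at 8.20 CPM in ID8-FSHR and 6.25 CPM in ID8. With 3 counts allowed over the uninjected group, it was at least 552-fold higher in ID8-FSHR and at least 418-fold in ID8. These bounds cover counting error only, and would be lower if both reads of a pair were counted. The macrophage growth factor Csf1 fell by 0.60 in ID8-FSHR relative to ID8 (SE 0.15, edgeR adjusted p = 0.0238), a call lost under 4 of 22 alternatives, among them without ID8 replicate 1 or 4 (edgeR adjusted p up to 0.719). Among 8 genes of the related VEGF family 7 were higher and 0 lower in each tumour group, including Vegfa, which the labels name, Flt1 at 41.5 CPM in ID8-FSHR, 61.1 CPM in ID8 and 1.09 CPM in uninjected mice, and Flt4 at 47.2 CPM in ID8-FSHR, 60.4 CPM in ID8 and 0.996 CPM in uninjected mice. Between ID8-FSHR and ID8, 0 of the 8 passed with edgeR, DESeq2 or limma-voom, and 0 had an unadjusted edgeR p under 0.05. Flt1 stood at -0.56 (edgeR adjusted p = 0.181).

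**Figure D5:**
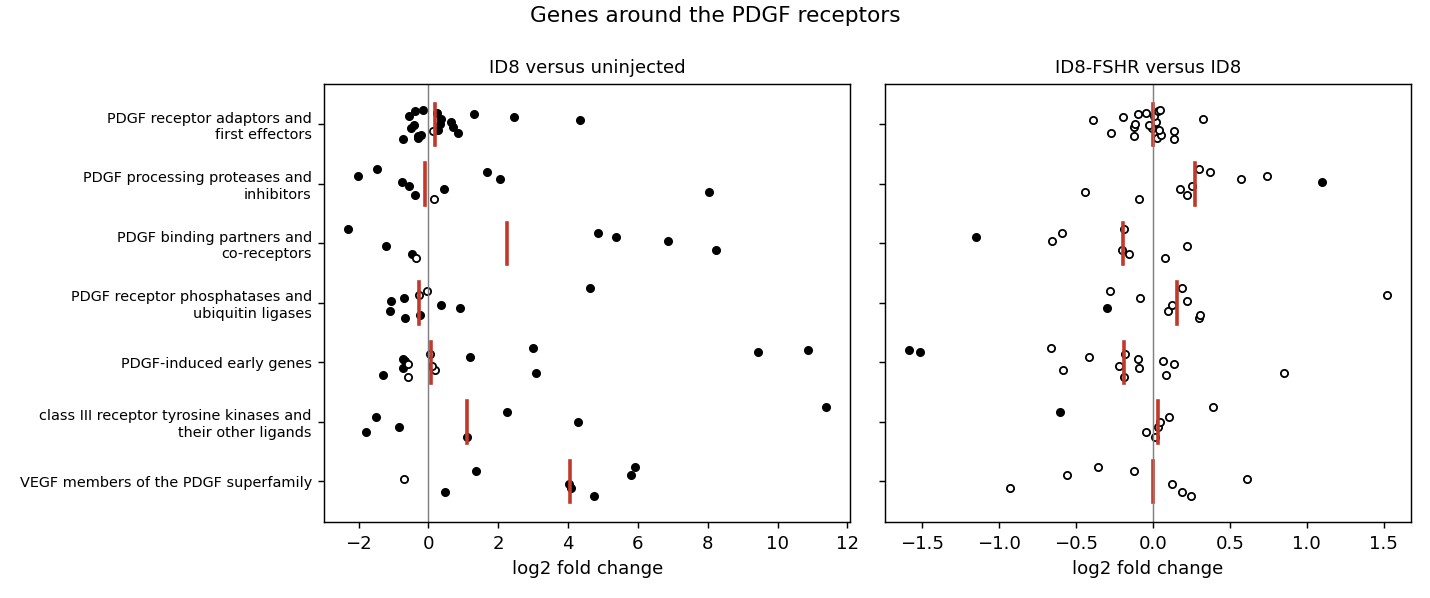
Log2 fold change (x axis) of every tested gene of the 7 pathway lists in ID8 versus uninjected (left) and ID8-FSHR versus ID8 (right), with filled points at edgeR adjusted p under 0.05 and the list median as a red bar. In ID8-FSHR versus ID8 the filled points are St14, Bgn, Ptpn12, Ccn1, Ccn2 and Csf1.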

How the data were processed

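Per the labels, RNA was depleted of ribosomal RNA from 100 ng of input. The authors deposited whole-number read counts per gene, not normalized as far as the values show. The build GRCm38.p6 and the tools featureCounts (Subread 1.6.4), STAR 2.7.9a and bcl2fastq 2.20 are named per the submitters' processing notes, while annotation release, strand and pair settings are not given in those sources. Of 55401 gene identifiers, 54349 equal those of GENCODE M21, which gave coordinates and exon lengths.

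In R 4.3.3, edgeR 4.0.16 quasi-likelihood tests (robust, TMM scaling, default count filter, all 12 libraries, group only) were adjusted by Benjamini-Hochberg over 16915 genes, and an adjusted p under 0.05 was called. The alternatives were DESeq2 1.42.0, limma 3.58.1 (voom) and others given below. Named genes were the 6 members, the 3 pathway-list genes with the smallest adjusted p in each of ID8 versus uninjected and ID8-FSHR versus ID8, and the 3 genes most like each member. A gene that the rule takes is not reported here. The members, lists and rules were chosen with earlier results of these data known. The sources used here state no pairing of mice by replicate number. Libraries with the same number correlated from -0.217 to 0.352, which cannot exclude a pairing. No replicate pair agreed within sampling noise (chi-square per degree of freedom 15.3 to 262.3).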

Additional observations from a re-analysis of the deposited data

Results flagged for a closer look

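Chance gives about 1 such gap in 20 groups, and 27 groups of 4 were checked. Pdgfb in ID8-FSHR had replicate 4 at 40.0 CPM, where the other 3 libraries lay at 19.7 to 21.7 CPM. Pdgfd was at 0.0401 CPM in ID8-FSHR replicate 3 and at 0.202 CPM in ID8 replicate 2, with 0 in the other libraries of both groups, and Pdgfra was at 0.0369 CPM in uninjected replicate 2, with 0 in the others. These 3 values rest on 2 to 10 counts. The log2 ratio of Pdgfa to Pdgfb was 0.20 in uninjected replicate 1, against -0.14 to -0.10 in the others. The log2 ratio of Pdgfc to Pdgfd was 6.95 in ID8 replicate 2, against 11.81 to 12.10 in the others, where Pdgfd was at 0 and the 0.5 added sets the ratio.

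The effects of the 2 tumour lines differed for Pdgfc, by -1.96 on the log2 scale between ID8-FSHR and ID8 (edgeR quasi-likelihood adjusted p = 0.00138). For the log2 ratio of Pdgfa to Pdgfb they differed by 0.90 (exact permutation adjusted p = 0.0429).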

How the results depend on the processing

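Over DESeq2, limma-voom, other scaling, filters and sample sets, halved counts (chosen after seeing the data), the replicate block and leaving out each library, the calls of Pdgfa, Pdgfb, Pdgfc and Pdgfra against uninjected mice all held. Pdgfrb in ID8 against uninjected mice was 2.25 (edgeR adjusted p = 0.057) with the replicate block, and ranged from 1.55 to 2.86 without single libraries. In ID8-FSHR versus ID8, 2 members were called, not 1, with DESeq2, limma-voom and the block and without ID8-FSHR replicate 2 or 4, and 1 to 2 without single libraries. Pdgfb was then -0.64 (DESeq2), -0.68 (limma-voom, adjusted p = 0.0309) and -0.66 (block, edgeR adjusted p = 0.0314), and -0.93 to -0.52 without single libraries. Pdgfa was 0.85 and Pdgfc -0.97 with the covariate, and 0.13 to 0.45 and -2.15 to -1.71 without single libraries. Pdgfrb ranged from -1.27 to 0.033, and turned without ID8 replicate 4. The cause was not tested.

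Of the 9 ratio comparisons, 6 were called. With the replicates paired the smallest exact p is 0.125, so the 6 called ratios (6.92, 6.22, 0.90, 0.70, 6.27, 7.83) had adjusted p = 0.188. Without single libraries Pdgfra to Pdgfrb differed by 6.24 to 7.70 (ID8-FSHR) and 5.53 to 7.00 (ID8), Pdgfa to Pdgfb by 0.77 to 1.03 (ID8-FSHR versus ID8), 0.58 to 0.83 (ID8-FSHR versus uninjected) and -0.28 to -0.12 (ID8 versus uninjected), and Pdgfc to Pdgfd by 5.85 to 7.09, 7.37 to 9.09 and -2.82 to -1.01 (ID8-FSHR and ID8 versus uninjected, ID8-FSHR versus ID8). The Pdgfc to Pdgfd values rest on the 0.5 added to Pdgfd counts of 0. Of 48 refits of the 6 called ratios without 1 library, 27 lost the call (exact permutation adjusted p = 0.0514 to 0.129), 10 of them for Pdgfc to Pdgfd. With so few libraries the exact p has a floor, and its adjustment depends on the other ratios. A lost call therefore does not by itself show that a ratio rests on the library left out. Uncalled ratios passed without ID8 replicate 2 (Pdgfc to Pdgfd, ID8-FSHR versus ID8, exact permutation adjusted p = 0.0429) and without ID8 replicate 3 (Pdgfa to Pdgfb, ID8 versus uninjected, exact permutation adjusted p = 0.0367).

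All genes called in ID8-FSHR versus ID8 numbered 1962, 3116 with DESeq2, 828 with the covariate and 961 to 3136 without single libraries. With the covariate these genes turned: Fyn -0.069, Gab1 0.14, Src 0.45, Spint2 -0.081, Plat 0.41, Hspg2 0.24, Dcn 0.25, Flt3l -0.22 and Flt4 0.26. The mesothelial sums did not overlap between the tumour groups. Every value with the covariate, those of Pdgfa and Pdgfc among them, thus separates list and group poorly. With the replicate block, among binding partners in ID8-FSHR versus ID8, the Bgn call was lost and Hspg2 passed (-0.65, edgeR adjusted p = 0.0175). Flt3l also turned without ID8 replicate 2 or ID8-FSHR replicate 2 (-0.018 to 0.23 without single libraries). Depth limits Pdgfd and Pdgfrb in all groups and Pdgfra in uninjected mice.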
